A study of Mus musculus with 2 samples.

Results

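The genes described here are 10 members of the BCL2 family, which sets whether a cell keeps its mitochondria intact or dies by apoptosis. They were chosen by name, as Bcl2, Bcl2l1, Mcl1, Bcl2a1d, Bcl2l11, Bax, Bak1, Bid, Bbc3 and Pmaip1, out of 20649 gene symbols with a probe on the array. Gene expression was measured on 2 one-colour arrays, each with the pooled RNA of 5 spleens, all from female mice and harvested on day 19 counted from the first injection. One pool came from spleens given phosphate-buffered saline (PBS), the control, and the other from spleens given silica (SiO2) and called remodelled in the labels. The comparison asks how the remodelled spleen differs from the control spleen. The labels used here name no strain, age, dose or genotype. In both groups the RNA was prepared with a blood RNA kit and depleted of globin message.

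There was 1 array per group, so no test between groups could be made and no spread between animals is known. A value is log2 of the background-subtracted spot signal minus that of the array's 75th percentile, which was 669.5 for the PBS pool and 469 for the SiO2 pool. A difference is SiO2 minus PBS on that scale, and genes are counted once they differ by 2-fold or more, a log2 value of 1. The error given with a signal is the scanner software's own error for that spot. It covers neither animals nor labelling. The number of arrays limits the precision of every value. All 11 B cell markers and all 12 T cell markers were well above background on both arrays. Of all spots, 75.5% on PBS and 74.9% on SiO2 were so too, which makes this a weak check of the tissue label.

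Family members act through one another. Survival members such as BCL2, BCL-XL and MCL1 hold the pore-forming proteins BAX and BAK in check at the outer mitochondrial membrane. BH3-only members sense stress, bind the survival members and so free or activate the pore, after which cytochrome c leaves the mitochondrion and caspases are activated. In the spleen this balance sets the lifespan of lymphocytes, neutrophils and red cell precursors, and each lineage is known to rely on a different survival member.

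Bcl2a1d is one of several near-identical copies of the A1 gene, and a stretch before the start of 3 copies is shown because a reader should see how little separates them. The sequences are from RefSeq, build GRCm38.p6, which is not the build of the array design, and are written 5′ to 3′ along each gene's strand. Capitals mark the bases that differ between the copies. They lie at chr9:88731851-88731940 on the minus strand (Bcl2a1d), chr9:88956830-88956919 on the plus strand (Bcl2a1a) and chr9:89199139-89199228 on the plus strand (Bcl2a1b).
Bcl2a1d: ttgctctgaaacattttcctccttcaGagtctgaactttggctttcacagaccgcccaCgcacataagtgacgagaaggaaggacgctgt
Bcl2a1a: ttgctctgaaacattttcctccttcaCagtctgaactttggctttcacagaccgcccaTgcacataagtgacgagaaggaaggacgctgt
Bcl2a1b: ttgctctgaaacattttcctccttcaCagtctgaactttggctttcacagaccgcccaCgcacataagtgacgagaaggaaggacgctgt
Over these 90 bases, Bcl2a1d matched Bcl2a1b at 89 positions and Bcl2a1a at 88. These bases lie before the transcript, so they do not show which copy the probe reads, and the probe's own sequence was not available. No probe was named for Bcl2a1a or Bcl2a1b, so the Bcl2a1d value is uncertain as to which copy it reads.

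Of the 10 members, all had a probe well above background on both arrays, 12 probes in all. Bcl2l1 was 2.04-fold higher in the SiO2 pool and was the 1 member past 2-fold, while 0 members were at least 2-fold lower. Over all 16774 named genes above background, 6.62% were at least 2-fold higher (1110 genes) and 3.69% at least 2-fold lower (619 genes), so 1 of 10 is close to the background. With B and T cell markers centred, that is with the SiO2 values shifted until these markers differ by 0 at the median, those numbers were 2181 and 284. The remaining 9 members lay between -0.76 and 0.60 on the log2 scale. Below 0 were 6 of the 10, against 47.7% of all named genes. The median difference of the 10 members was -0.31, against 0.03 for all named genes, and it was 0.02 with B and T cell markers centred, where the median of all named genes was 0.36. In a bulk sample, fewer cells of a type and less RNA per cell cannot be told apart.

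**Figure D1:**
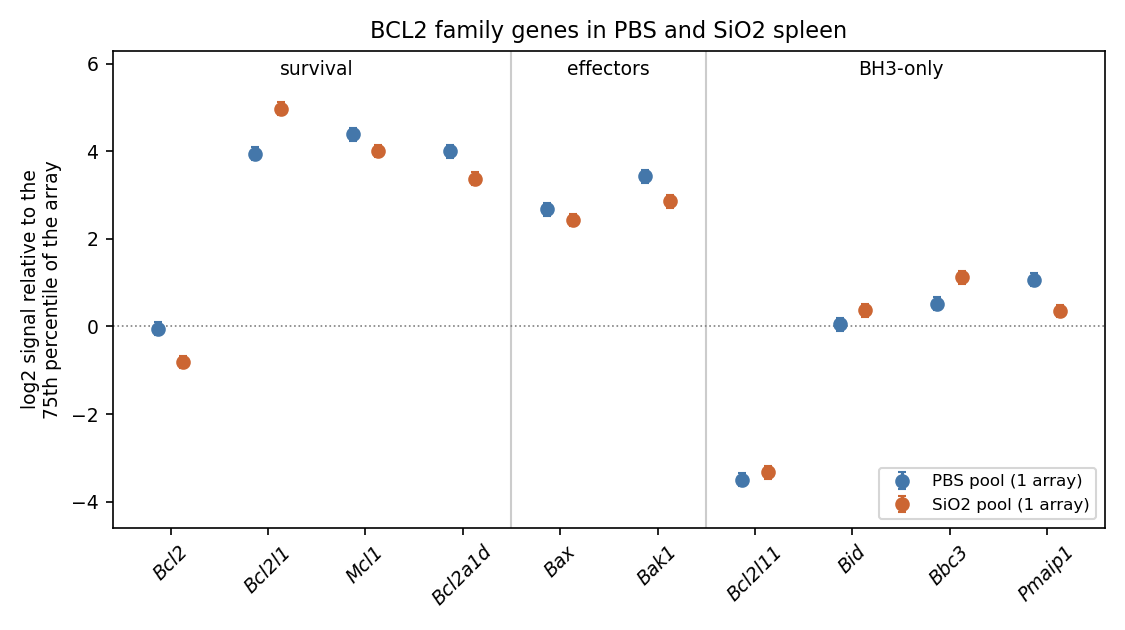
The log2 signal relative to the 75th percentile of the array (y axis) is plotted for each of the 10 genes (x axis) in the PBS pool (blue) and the SiO2 pool (orange), 1 array each, and bars give the scanner software's spot error. Heights of different genes are not comparable, since each is read by its own probe; within a gene, Bcl2l1, Bcl2l11, Bid and Bbc3 are higher in SiO2 and the other 6 lower.

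Among the survival members, Bcl2l1 was higher in the SiO2 pool and Bcl2, Bcl2a1d and Mcl1 lower. Bcl2l1 encodes BCL-XL, which keeps late red cell precursors and platelets alive. Its brighter probe had a signal of 10344 ± 1034 (spot error) in the PBS pool and 14779 ± 1478 in the SiO2 pool. That is a log2 difference of 1.03, at percentile 93.7 of all named genes. The dimmer probe of the gene gave the same direction, with signals of 33.1 ± 3.73 and 60.6 ± 6.22 and a difference of 1.39. The signal of Bcl2l1 was higher in SiO2 even before scaling, which held for 2 of the 10 members, the other being Bbc3. The 2-fold mark was barely passed. The difference was 0.94 with normexp background correction, 0.94 with quantile scaling, 0.96 with cyclic loess and 0.98 with scaling to the array median, all just under it.

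Erythroid markers moved with Bcl2l1. Past 2-fold were 11 of 13, all on the higher side, and the median was 1.77, the difference of Alas2, the first enzyme of haem synthesis in red cells. The largest difference was that of Epb42 (2.60), a red cell membrane protein, and Hemgn, a nuclear protein of blood precursors, was the 1 marker below 0 (-0.42). Their summed signal was 106 times the 75th percentile in the PBS pool and 233 times in the SiO2 pool, and 1 of the 13 was not above background in PBS. Epor, the erythropoietin receptor, whose signal is known to induce Bcl2l1, was 3.05-fold higher (1.61). Platelet markers, the other lineage that needs BCL-XL, had 0 of 5 differing 2-fold and a median of -0.18, or 0.20 under normexp and 0.15 with B and T cell markers centred. The part of these cells in the Bcl2l1 difference was not tested.

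A stretch before one of the 3 RefSeq start sites of Bcl2l1 is shown because it holds the letters AGATAA, bound by GATA factors of the red cell lineage. The 60 bases lie at chr2:152828490-152828549 on the minus strand, build GRCm38.p6, and capitals mark the match.
Bcl2l1: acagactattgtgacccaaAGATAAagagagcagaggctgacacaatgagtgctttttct
Windows of 300 bases, 250 before to 50 after each start, were searched on both strands. Of the 10 members, 9 had entries there, with 14 windows, and Pmaip1 had none. AGATAA was present in 1 of these 14 windows and in 11.2% of all 32851 windows. TTCNNNGAA, the core bound by STAT factors, was in 0 of the 14 and in 8.30% of all. A match describes the letters only.

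Bcl2, the founding member, which protects resting lymphocytes, had a signal of 647 ± 64.7 (spot error) in the PBS pool and 267 ± 26.7 in the SiO2 pool. The log2 difference was -0.76, or 1.70-fold lower, at percentile 7.2 of all named genes. Lymphocyte markers were lower as well. B cell markers had a median of -0.57, with 10 of 11 below 0 and 0 past 2-fold. The complement receptor Cr2 was lowest at -0.88. T cell markers had a median of -0.25, or 0.09 once B and T cell markers were centred, with 10 of 12 below 0. The summed signal of B cell markers was 114 times the 75th percentile in PBS and 80.2 times in SiO2. Centring on B and T cell markers moves every gene alike, and Bcl2 was then at -0.43, the B cell median at -0.24 and Cr2 at -0.54. The part of lymphocyte content in its difference was not tested.

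Mcl1 encodes a short-lived survival protein that most blood lineages need. Its brighter probe read 14044 ± 1404 (spot error) in the PBS pool and 7560 ± 756 in the SiO2 pool, and its second probe 6543 ± 654 and 3591 ± 359. The differences were -0.38 and -0.35, so the probes gave nearly the same value. Both lay within 2 times the error of the difference, which was 0.20. With B and T cell markers centred the first was -0.05.

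Bcl2a1d, an A1 copy expressed in leukocytes and induced by NF-kB, had a signal of 10731 ± 1073 (spot error) in the PBS pool and 4879 ± 488 in the SiO2 pool. Its difference was -0.62, or 1.54-fold lower, at percentile 10.9 of all named genes. The further A1 copy with a probe of its own, Bcl2a1c, was at -0.34. Neutrophils are known to carry A1. Of 12 neutrophil markers, 7 were past 2-fold on the higher side and 0 on the lower, led by the granule genes Ngp (3.13) and Ltf (2.96), while S100a9 was at 0.39, Csf3r at 0.13 and the chemokine receptor Cxcr2 at -0.80. Their median was 1.59, or 0.82 over fewer genes in the authors' deposited values, where Ngp, Ltf and Camp were not measured. Their summed signal was 147 times the 75th percentile in PBS and 265 times in SiO2. Macrophage markers were lower, with 4 of 12 at least 2-fold lower and a median of -0.90, Adgre1 being nearest to it, and Fcgr1 (-2.02) and Aif1 (-1.50) lowest. Their summed signal was 114 times in PBS and 59.3 times in SiO2. The part of either cell type in the Bcl2a1d difference was not tested.

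The pore-forming effectors were both nearer to 0 than Bcl2. Bak1, which encodes BAK, had a signal of 7236 ± 724 (spot error) in the PBS pool and 3401 ± 340 in the SiO2 pool, a difference of -0.58. Bax read 4281 ± 428 and 2536 ± 254, a difference of -0.24 that was within 2 times its error of 0.20 and turned to 0.09 with B and T cell markers centred. Bax is a textbook target of p53. Here 1 stretch before its start is shown because it alone among the members' windows held a p53 half-site, Pmaip1 having no window. The 60 bases lie at chr7:45467065-45467124 on the minus strand, build GRCm38.p6, with the half-site in capitals.
Bax: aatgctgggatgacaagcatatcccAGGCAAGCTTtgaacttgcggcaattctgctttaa
The half-site was in 8.36% of all windows, on either strand, and its letters read as a match on both strands here. The NF-kB motif was in 2 of the 14 windows, 1 of Bcl2l1 and 1 of Bbc3, against 8.46% of all, and in none of Bcl2a1d.

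The BH3-only members differed among themselves. Pmaip1 encodes NOXA, which binds MCL1 and A1, and read 1407 ± 141 (spot error) in the PBS pool and 599 ± 59.9 in the SiO2 pool. Its difference was -0.72, or 1.65-fold lower, at percentile 8.3. Bbc3 encodes PUMA, which binds every survival member, and read 958 ± 95.8 in the PBS pool and 1020 ± 102 in the SiO2 pool. After scaling, that was a difference of 0.60, or 1.52-fold higher, at percentile 84.7. NOXA and PUMA are both known p53 targets, and here they lay on opposite sides of 0 in the main setting and in all 12 alternatives. Bid, whose protein links death receptors to mitochondria once caspase-8 has cut it, read 694 ± 69.4 in PBS and 605 ± 60.5 in SiO2, a difference of 0.32. Bcl2l11 encodes BIM, which removes lymphocytes deprived of survival signals, and read 59.4 ± 6.11 in PBS and 46.7 ± 4.83 in SiO2, a difference of 0.17. Bid and Bcl2l11 were both within 2 times their error in the main setting.

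**Figure D2:**
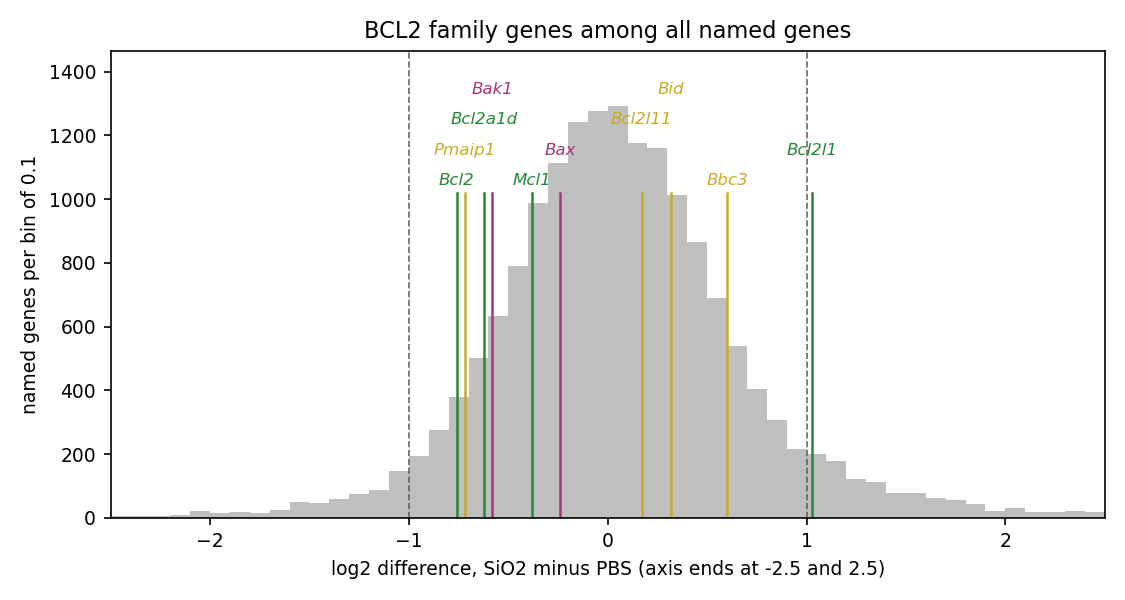
The grey histogram counts the 16774 named genes by their log2 difference, SiO2 minus PBS (x axis, with the far tails cut off), in bins of 0.1 (y axis), and coloured lines place the 10 BCL2 family genes by role (green survival, purple pore-forming, yellow BH3-only). Dashed lines mark 2-fold; Bcl2l1 lies just past the upper one, and the others lie inside both.

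In the main setting 6 members differed by more than 2 times the spot error. They were Bcl2l1 and Bbc3 on the higher side and Bcl2, Pmaip1, Bcl2a1d and Bak1 on the lower. The spot error leaves out the choice of scaling. With B and T cell markers centred, Pmaip1 (-0.39), Bcl2a1d (-0.29) and Bak1 (-0.24) were within 2 times their error of 0.20. Bid (0.65) and Bcl2l11 (0.50) were then past 2 times theirs. The order of the differences ran from Bcl2 (-0.76) through Pmaip1, Bcl2a1d, Bak1, Mcl1, Bax, Bcl2l11, Bid and Bbc3 to Bcl2l1 (1.03). Neighbours in that order were no further apart than the combined error of their differences, 0.29, except at 2 steps. These were from Bax to Bcl2l11 (0.41) and from Bbc3 to Bcl2l1 (0.42). The spot error was nearly the same share of the signal for each of these probes. The combined error was thus 0.29 for every pair, a fixed cut and not a measured spread. Repeated spots gave a smaller median standard deviation of the log2 difference, 0.059. Of the 10 members, 9 kept their sign in every alternative that measured them, and Bax was the exception. The 2 alternatives with other filters could not change a member's value. The mean over probes could change only the 2 members with 2 probes. Scaling to the median, over probes and over both arrays shifted all genes by -0.052, -0.021 and -0.015. Those shifts are smaller than every member's difference, so they could not turn a sign. With B and T cell markers centred, Mcl1 kept its sign at only -0.05.

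**Figure D3:**
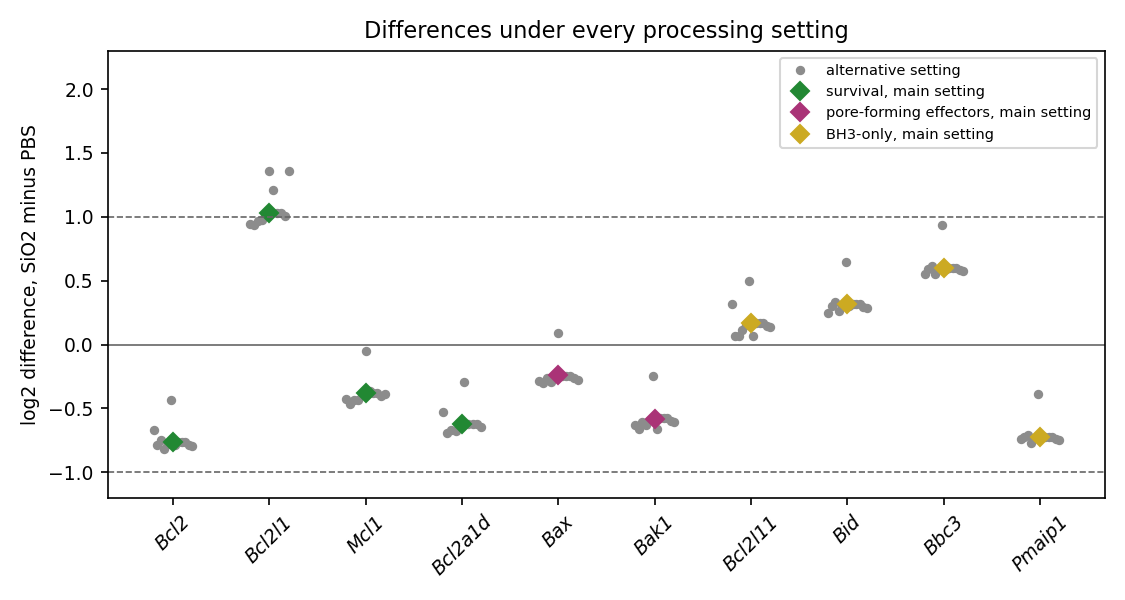
The log2 difference, SiO2 minus PBS (y axis), is plotted for each of the 10 genes (x axis) in the main setting (diamonds, coloured by role) and in each alternative (grey points), with dashed lines at 2-fold. Bcl2l1 spans 0.94 to 1.36 across its 11 alternatives, and the highest point of the 6 genes below 0 in the main setting is that with B and T cell markers centred, where Bax reaches 0.09.

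Further BCL2 family genes were taken from a list of 16, of which 13 were measured. Past 2-fold were 4 on the higher side and 1 on the lower, and the median was 0.17. Over all named genes in the same setting, 6.62% were past 2-fold on the higher side and 3.69% on the lower. Bcl2l15 was 3.31-fold higher (1.73). Bnip3l encodes NIX, which clears mitochondria from maturing reticulocytes, and its brightest probe read 6226 in PBS and 9951 in SiO2, a difference of 1.19, with its 4 probes between 0.98 and 1.19. Bcl2l13, a mitochondrial outer membrane protein, was at 1.01. Hrk, a BH3-only gene, was not above background in PBS (signal 2.37) and was at least 2.03-fold higher, with a signal of only 10.5 in SiO2. Bcl2l14 had 2 probes that disagreed, the brightest at -1.32 (2.49-fold lower) and the other at 0.51. Under normexp, where 3.90% of all named genes were past 2-fold on the higher side and 1.54% on the lower, 2 of these genes passed on the higher side and 0 on the lower.

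Downstream of the pore, genes of the apoptosome and of mitochondrial release differed little. Of 9 measured, 0 differed 2-fold, the median was 0.19, and the channel gene Vdac3 stood at it. Among 9 caspases 0 differed 2-fold, with a median of 0.10 and the initiator Casp8 at 0.10. In the authors' deposited values the caspase median was -0.43, over fewer genes. Of 9 inhibitors of apoptosis (IAP) genes, 1 was at least 2-fold higher, against 6.62% of all named genes. It was Birc5 at 2.32-fold (1.22), and its 3 probes lay between 1.22 and 1.55. Birc5 encodes survivin, which also serves in mitosis, and cell cycle genes were higher with it, 9 of 12 past 2-fold, with a median of 1.24. The IAP median was -0.12, or 0.21 with B and T cell markers centred. The part of dividing cells in the Birc5 difference was not tested.

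Genes of death receptor signalling were on the lower side. Past 2-fold on the lower side were 3 of 11, with 0 on the higher side. The background of genes past 2-fold on the lower side was 3.69%. In all, 8 were below 0, and the median was -0.44 against 0.03 over all named genes. Under normexp 2 passed on the lower side with a median of -0.27, and with B and T cell markers centred 1 passed with a median of -0.10. Tnfsf10, the death ligand TRAIL, read 893 in PBS and 209 in SiO2, 2.99-fold lower (-1.58). Fasl, the ligand of killer lymphocytes, was at -1.11, or -0.59 under normexp, and Tnfrsf1a, the main TNF receptor, at -1.04, its other probe at -0.59. Natural killer cell markers moved with Fasl, as 6 of 7 were at least 2-fold lower with a median of -1.88, Klrb1c being at it, and Gzma (-2.62) and Gzmb (-2.06) lowest, while the perforin gene Prf1 was at 0.01. Under normexp their median was -0.98, with Klrb1c at -0.89 and 3 of 7 past 2-fold. Their summed signal was 14.5 times the 75th percentile in PBS and 2.82 times in SiO2. Their part in the lower values was not tested.

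Upstream, genes of the p53 pathway had 2 of 15 past 2-fold on the higher side and 1 on the lower. Over all named genes, 6.62% were past 2-fold on the higher side and 3.69% on the lower. The median of the p53 list was near 0, and its sign changed between scalings (0.03 here, -0.03 with median scaling). Gadd45a, a stress gene of cell cycle arrest, read 3219 in PBS and 8060 in SiO2, 3.57-fold higher (1.84), and Pidd1, which activates caspase-2, was at 1.26. Perp, also a junction protein of epithelia, was 3.84-fold lower (-1.94), or -0.47 under normexp with a SiO2 signal of 14.5. Mesothelial markers were lower with Perp, 5 of 6 at least 2-fold, with a median of -3.96, or -1.39 under normexp. Krt19 and Upk1b among them were not above background in SiO2, so their differences, and the median that rests on Upk1b, are bounds. The part of mesothelial cells in the Perp difference was not tested. Of 15 genes of survival signalling, 1 was at least 2-fold higher, Epor as above, and 2 lower. The 1 of 15 is close to the 6.62% of all named genes, and the share for lower genes was 3.69%. The list median was -0.10, or 0.23 with B and T cell markers centred. With B and T cell markers centred, 0 of the 15 were at least 2-fold lower. Of the NF-kB subunit genes in the list, Rela was at -0.15. Rel was at -1.33, or -0.40 under normexp, and Nfkb1 at -1.05 by its brightest probe, which read 2681 in PBS and 907 in SiO2, with a second probe at 0.00.

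**Figure D4:**
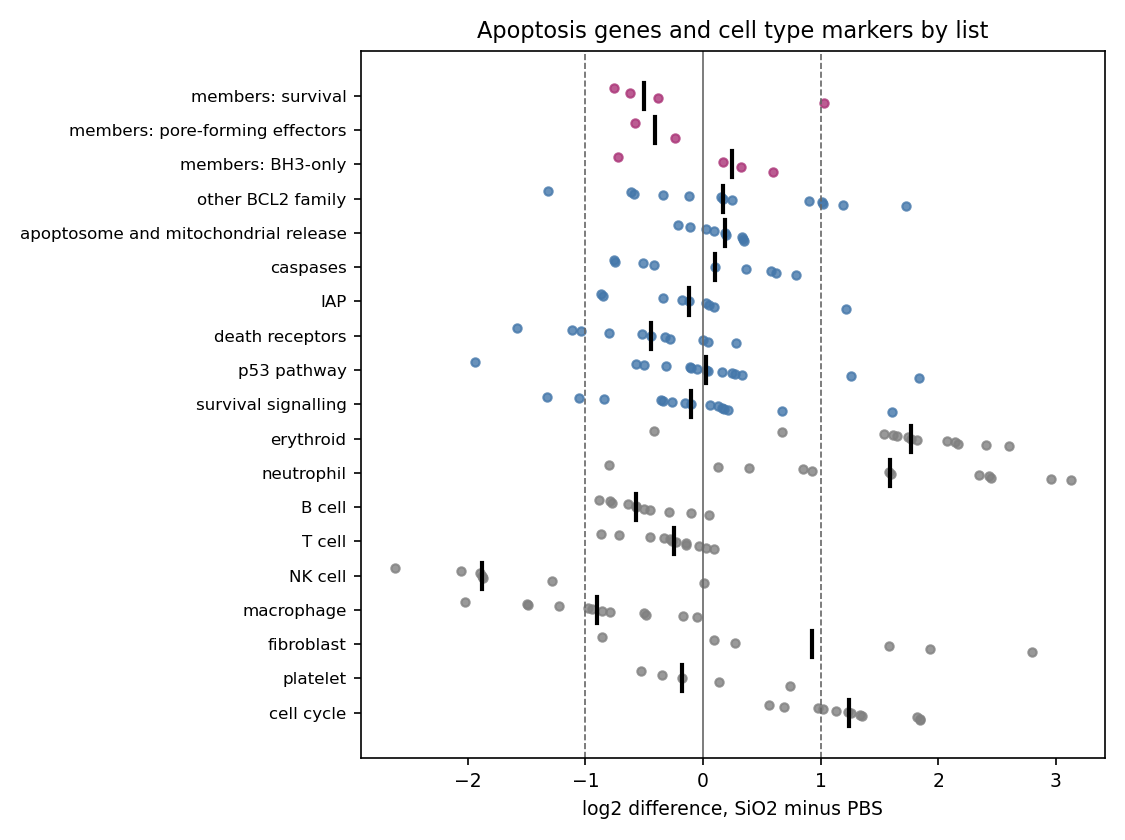
The log2 difference, SiO2 minus PBS (x axis), is plotted for each gene of each list (y axis), with black bars at the list medians, dashed lines at 2-fold, BCL2 family members in purple, other apoptosis genes in blue and cell type markers in grey (fibroblast markers had a median of 0.92; mesothelial markers, median -3.96 as a bound, are left out for scale). Death receptor genes lie mostly below 0, and erythroid, neutrophil and cell cycle genes mostly above it.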

How the data were processed

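The authors' deposited scanner files hold spot intensity on a linear scale, made with Agilent Feature Extraction 11.0.1.1 per the file headers. Version 9.1 stands in the submitters' processing notes. The software subtracted background, per the file headers. Control spots and feature outliers (145 on PBS, 148 on SiO2) were removed, 0 spots were saturated, and 75.5% and 74.9% of spots were well above background. Both arrays lie in 1 scan image, per the file headers. Repeated spots of a probe were averaged. Of 39398 probes, 27217 were named by accession from the RefSeq table of GRCm38.p6, used for names only. Each gene took the value of its brightest probe among those above background on 1 array or both; a value not above background was raised to the lowest signal above background if it lay under it, and the difference then reads "at least". In the series matrix the authors deposited log2 values, with a median of 5.68 in both columns and slopes of 0.994 and 1.01 against the scanner values; how the columns were aligned is not stated in the labels or headers. Of the members, 6 were measured in it.

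Members and lists were chosen with earlier results of these data known. All members were named, and from each further list up to 4 genes per direction past 2-fold or else the gene nearest the median; from each marker list, the gene nearest the median and up to 2 extremes. Some genes that this rule takes are left out of the text. With 2 arrays each gene has 1 difference, so genes of like pattern were not sought. Alternatives were normexp (limma 3.58.1, offset 50, on the median spot signal, in place of the mean signal), quantile, cyclic loess, median, both-array and lymphocyte-marker scaling, the series matrix, the mean over probes, 2 other filters and, added after the data were seen, 2 more. The procedure was tested on simulated data.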

Additional observations from a re-analysis of the deposited data

How the results depend on the processing

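Bcl2l1 was at least 2-fold higher in 7 of the 11 alternatives that measured it. Among these 7 were the 2 other filters, which could not change its value, since every member probe was above background on both arrays. With the 75th percentile taken over probes it was 1.006, and over probes above background on both arrays 1.012. The count of members at least 2-fold higher was 0 in place of 1 under normexp, quantile, cyclic loess and median scaling, and also 0 in the authors' deposited values, where Bcl2l1 was not measured. No alternative gave a member at least 2-fold lower. The members' median of -0.31 was -0.38 under quantile scaling and 0.021 with B and T cell markers centred. Of all named genes, 655 passed 2-fold on the higher side and 259 on the lower under normexp, 2181 and 284 with B and T cell markers centred, and 700 were higher in the authors' deposited values, which hold fewer genes. Quantile scaling gave 961 higher and 751 lower. The median of all genes moved by 0.146 under normexp and 0.333 with B and T cell markers centred. The bright spots of Bcl2l1, Mcl1 and Bcl2a1d carried a flag for unusual local background; with such spots removed, a choice made after seeing the data, Bcl2a1d was not measured, Bcl2l1 was read by its dim probe alone and stood at 1.355, and the members' median was -0.27. Repeated spots had a median standard deviation of 0.059 for the log2 difference, and a 95th percentile of 0.201, over 266 probes. No paired analysis was possible because each group has 1 array.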

Other observations

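Some caspases and necroptosis genes, read after their values were seen, differed without passing 2-fold. The inflammatory caspases Casp1 and Casp4, which cut gasdermin, were at -0.76 and -0.75, and Casp12 at -0.51, or 0.12 under normexp. Casp2, Casp6 and Casp9 were at 0.62, 0.58 and 0.37. Ripk3 and Mlkl, which carry out necroptosis, were at -0.80 and -0.52, and Mlkl was at -0.27 under normexp. With B and T cell markers centred, Casp1 was at -0.43.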
